A study of Mus musculus with 3 samples.

Results

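Outer hair cells are the motile sensory cells of the cochlea. Here they are the barcodes of 3 single-cell libraries in which oncomodulin (Ocm), a calcium-binding protein, made up at least 0.5% of all UMIs and in which Slc26a5, Lbh and Strip2 together gave at least 2 UMIs. Only barcodes with 200 to 6000 genes and at most 15% of UMIs from mitochondrially encoded genes were considered. Of 32657 barcodes in the files, 14378 stood within these limits, and 903 of them (6.28%) met the rule for outer hair cells. The libraries came from the cochleae of C57/B6 mice, a strain named C57BL/6J in the methods of the study, at postnatal day 14 (P14, 1 library) and postnatal day 28 (P28, 2 libraries, here replicates 1 and 2). Each library pooled 14 cochleae of 7 mice, so the mice of a library cannot be told apart, the labels do not give their sex, and the methods state that the cells came mainly from the upper basal to the apical turns. The labels name no transgene and no treatment. The study built the libraries to record which genes each cochlear cell type uses at both ages.

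Outer hair cells amplify sound in the mammalian cochlea. Prestin, the motor protein encoded by Slc26a5, changes cell length with membrane voltage, while a bundle of stereocilia on the apical surface carries the mechanically gated channels that set this voltage. Efferent fibres contact the base of the cell through a nicotinic receptor built from the α9 and α10 subunits (Chrna9, Chrna10). Inner hair cells, the neighbouring sensory cells, pass the signal on to the auditory nerve through ribbon synapses that depend on otoferlin (Otof) and the glutamate transporter encoded by Slc17a8.

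The P14 library held 259 outer hair cell barcodes of 1662 barcodes within the limits, or 15.6% (exact binomial 95% interval 13.9 to 17.4%). At P28 there were 362 of 5651 (6.41%, 5.78 to 7.08%) in replicate 1 and 282 of 7065 (3.99%, 3.55 to 4.47%) in replicate 2. The share was highest at P14 and differed between the replicates of P28 beyond counting error. The mitochondrial limit removed both outer hair cells and other barcodes. Of barcodes that met the rule on the 4 genes, 44 (14.5%) exceeded this limit at P14, 232 (39.1%) in P28 replicate 1 and 202 (41.7%) in P28 replicate 2. With a limit of 30% the members numbered 292, 573 and 470 and the other barcodes 1713, 9105 and 13665, and the share of members was 14.6, 5.92 and 3.33%, with P14 again the highest. Between members of the 2 P28 libraries 1 barcode sequence was shared, and the libraries shared 10, 20 and 54 barcode sequences in all. All intervals cover counting error only.

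Depth differed between the libraries, and outer hair cells were deeper than the other barcodes, whose medians were 1966, 2264 and 1956 UMIs. The median outer hair cell barcode held 6876 UMIs and 2682 genes at P14, 5244 UMIs and 2390 genes in P28 replicate 1, and 3753 UMIs and 1877 genes in P28 replicate 2. Summed over members, the libraries gave 1859838, 2417285 and 1374114 UMIs. The quartiles of depth were 4172 and 9329 UMIs at P14, 4709 and 7774 in P28 replicate 1, and 3160 and 6098 in P28 replicate 2. The files held 10125255, 35485894 and 37530956 UMIs in all. Members with more than 3000 genes numbered 95, 98 and 49, and the summed level of 10 supporting cell markers in these was 84.8, 917 and 654 counts per 1000000 UMIs (CPM) against 33.1, 172 and 422 CPM in the members with fewer genes. No doublet caller was run, and the part of doublets in this difference was not tested. The mitochondrial share of members had a median of 8.62% at P14 and 13.1 and 12.7% at P28. Malat1, a nuclear RNA, took a median of 5.46% of UMIs at P14 and 1.12 and 1.27% at P28, and 75 P14 members against 0 members at P28 had over 5% Malat1 with under 5% ribosomal protein UMIs.

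**Figure D1:**
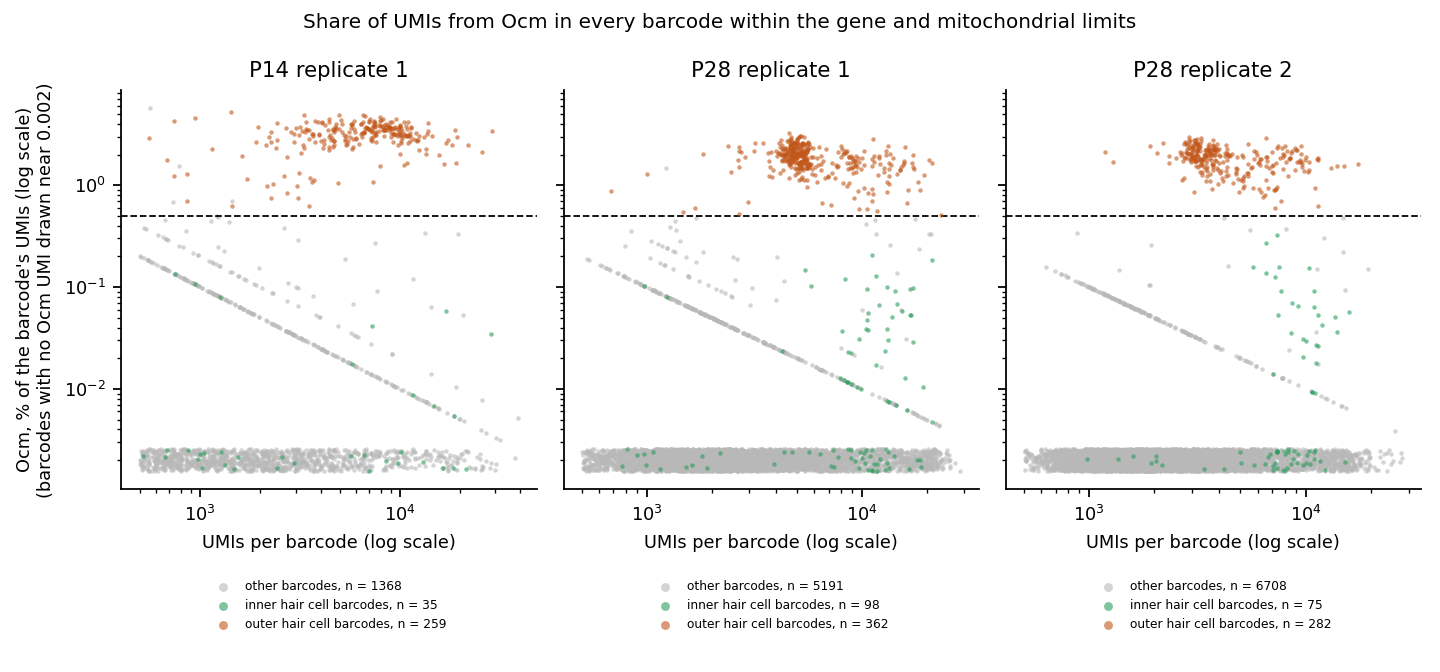
Share of UMIs from Ocm (vertical, %, log scale) against total UMIs (horizontal, log scale) of every barcode within the gene and mitochondrial limits, 1 panel per library; the dashed line is the limit of 0.5%. The 259, 362 and 282 outer hair cell barcodes formed a cloud above the line, and inner hair cell barcodes lay below it; grey points leave out the inner hair cell barcodes.

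The 4 genes of the rule are given as a description. On the GRCm38 build of the mouse genome (GENCODE M21) Ocm lies on chromosome 5 (144019804 to 144026670, minus strand), as does Slc26a5 (21810655 to 21865604, minus strand), while Lbh lies on chromosome 17 (72918305 to 72941947, plus strand) and Strip2 on chromosome 6 (29917012 to 29959681, plus strand). Ocm stood at 31729, 17468 and 17634 CPM in outer hair cells (P14, P28 replicate 1 and P28 replicate 2, in this order throughout), and at 116, 52.6 and 30.4 CPM in all other barcodes. Slc26a5 stood at 2043, 539 and 657 CPM, against 10.0, 1.13 and 0.958 CPM elsewhere. Lbh, a transcriptional cofactor, stood at 2317, 3639.6 and 3335 CPM, and Strip2, a subunit of a phosphatase and kinase complex, at 813, 1382 and 1299.8 CPM. Ocm and Slc26a5 were highest at P14, whereas Lbh and Strip2 were highest at P28. Around the limit of 0.5%, the member with the lowest Ocm share had 0.623, 0.508 and 0.596% in the 3 libraries, and the nearest barcode below the limit with enough UMIs of the other 3 genes had 0.496, 0.464 and 0.478%. Few barcodes were near the line, since 8, 24 and 19 members had an Ocm share under 1%.

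Markers that the rule did not use were high in the members. All other barcodes within the same gene and mitochondrial limits, inner hair cells included, served as the comparison (1403, 5289 and 6783 barcodes). UMIs were summed per library over members and over the comparison, and edgeR's quasi-likelihood test with the library as a block was fitted to 13053 genes. Of these, 3433 (26.3%) were higher and 3993 (30.6%) lower in outer hair cells at a Benjamini-Hochberg adjusted p under 0.05. Without P28 replicate 1 the counts were 1162 and 2035, and without P28 replicate 2 they were 1621 and 3091. At least 4-fold, 903 genes (6.92%) were higher and 2547 (19.5%) lower. All 10 hair cell markers of the list outside the rule were higher in outer hair cells, in 3 of 3 libraries, with a median log2 fold change of 4.88, where the median over all genes tested was -0.02. UMIs were counted at the 3′ end, so levels were not corrected for gene length. The p-values measure the spread between these 3 libraries, in which each library's own cells are the comparison.

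The efferent synapse had the highest median of the 31 gene lists, 5.47 over its 4 genes. The level of Chrna9 was 356, 156 and 141 CPM in outer hair cells and 2.15, 0.676 and 0.502 CPM in all other barcodes (log2 fold change 7.91 ± 0.21 (SE), adjusted p = 0.000544). Chrna10 stood at 498, 786 and 693 CPM against 8.97, 3.38 and 1.96 CPM (log2 fold change 7.54 ± 0.66 (SE), adjusted p = 0.00184). Both receptor genes lay far above the rest in every library, and Chrna9 was highest at P14 while Chrna10 was lowest there. Kcnn2, the calcium-gated potassium channel that opens after the receptor, stood at 197, 220.1 and 192 CPM (log2 fold change 3.40 ± 0.21 (SE), adjusted p = 0.000981). The fourth gene of the list, Rapsn, was at 11.8, 5.79 and 2.91 CPM and was not called, its adjusted p being 0.204.

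The mechanotransduction list held 13 genes, of which 10 were tested and all 10 were higher in outer hair cells (26.3% of all genes tested). Tmc1, a pore subunit of the channel, stood at 768, 609.8 and 683 CPM and at 27.5, 14.8 and 11.7 CPM in the rest (log2 fold change 5.49 ± 0.25 (SE), adjusted p = 0.000659). Its relative Tmc2 had no UMI in 2 libraries and stood at 0.728 CPM in P28 replicate 2. Lhfpl5, which couples the channel to the tip link, stood at 1138, 867 and 839 CPM (log2 fold change 5.90 ± 0.27 (SE), adjusted p = 0.000655), and Tmie, another channel subunit, at 299, 255 and 238 CPM (log2 fold change 5.91 ± 0.15 (SE), adjusted p = 0.000544). Cib2, a calcium-binding partner of the channel, was the most abundant gene of the list, at 4212, 4109 and 3919.6 CPM, and Cib3 was at 0 in all 3 libraries. The tip link genes stood far lower, Cdh23 at 150.01, 181 and 169 CPM and Pcdh15 at 42.5, 94.7 and 99.7 CPM. Pcdh15 had the smallest difference from the rest (log2 fold change 1.68 ± 0.20 (SE), adjusted p = 0.00332).

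Most genes of the stereocilia were higher. Of 11 genes for the actin core and rootlet, 8 were higher and 2 lower, and of 11 tested genes for surface links and the taper region 10 were higher and none lower, beside 26.3% and 30.6% of all genes tested. Lmo7, a cortical actin-binding protein of the cuticular plate, stood at 2525, 2129.7 and 2124 CPM (log2 fold change 4.89 ± 0.16 (SE), adjusted p = 0.000544) and Espn, the actin bundler espin, at 1431, 1155 and 1003 CPM (log2 fold change 4.84 ± 0.14 (SE), adjusted p = 0.000544). Strc, which encodes stereocilin of the top connectors between stereocilia, stood at 389.8, 529.5 and 501 CPM in outer hair cells, at 20.5, 20.4 and 20.9 CPM in inner hair cells and at 4.67, 2.07 and 1.64 CPM in the rest. The lower genes of the core were Actb and Pls3, a plastin, with Actb, β-actin, at 465, 422 and 491 CPM against 2095, 2759 and 2591 CPM (log2 fold change -2.28 ± 0.17 (SE), adjusted p = 0.00133). Lcp1, another plastin, went the other way, at 383, 461 and 429 CPM against 66.8, 30.8 and 24.6 CPM (log2 fold change 3.67 ± 0.36 (SE), adjusted p = 0.00243). For the tips, 7 of 9 tested genes were higher and 1 was lower. The lower gene, Capzb, a capping protein subunit (log2 fold change -0.47 ± 0.12 (SE), adjusted p = 0.0268), lost its call when either P28 library was left out. Eps8, which caps and bundles actin, was not called (log2 fold change 0.41 ± 0.15 (SE), adjusted p = 0.0735).

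Among transcription factors, 8 of 11 tested were higher and 2 (Tbx2 and Prox1) lower, beside 26.3% and 30.6% of all genes. Ikzf2, the zinc-finger factor of outer hair cell identity, stood at 611, 475 and 496 CPM against 59.9, 62.6 and 54.1 CPM (log2 fold change 3.30 ± 0.16 (SE), adjusted p = 0.000697). Pou4f3, the hair cell survival factor, stood at 1021, 707 and 652 CPM (log2 fold change 5.05 ± 0.20 (SE), adjusted p = 0.000562). Gfi1, Barhl1 and Lhx3, further hair cell factors, were higher as well, with log2 fold changes of 5.20 ± 0.24, 5.70 ± 0.33 and 6.18 ± 0.22 (SE). Tbx2, a factor of inner hair cells, was at 0, 7.03 and 11.6 CPM in outer hair cells against 44.0, 83.0 and 78.4 CPM in the rest (log2 fold change -3.53 ± 0.60 (SE), adjusted p = 0.00803), a call lost without P28 replicate 1. Atoh1 and Insm1, factors of hair cell development, had too few UMIs to be tested.

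**Figure D2:**
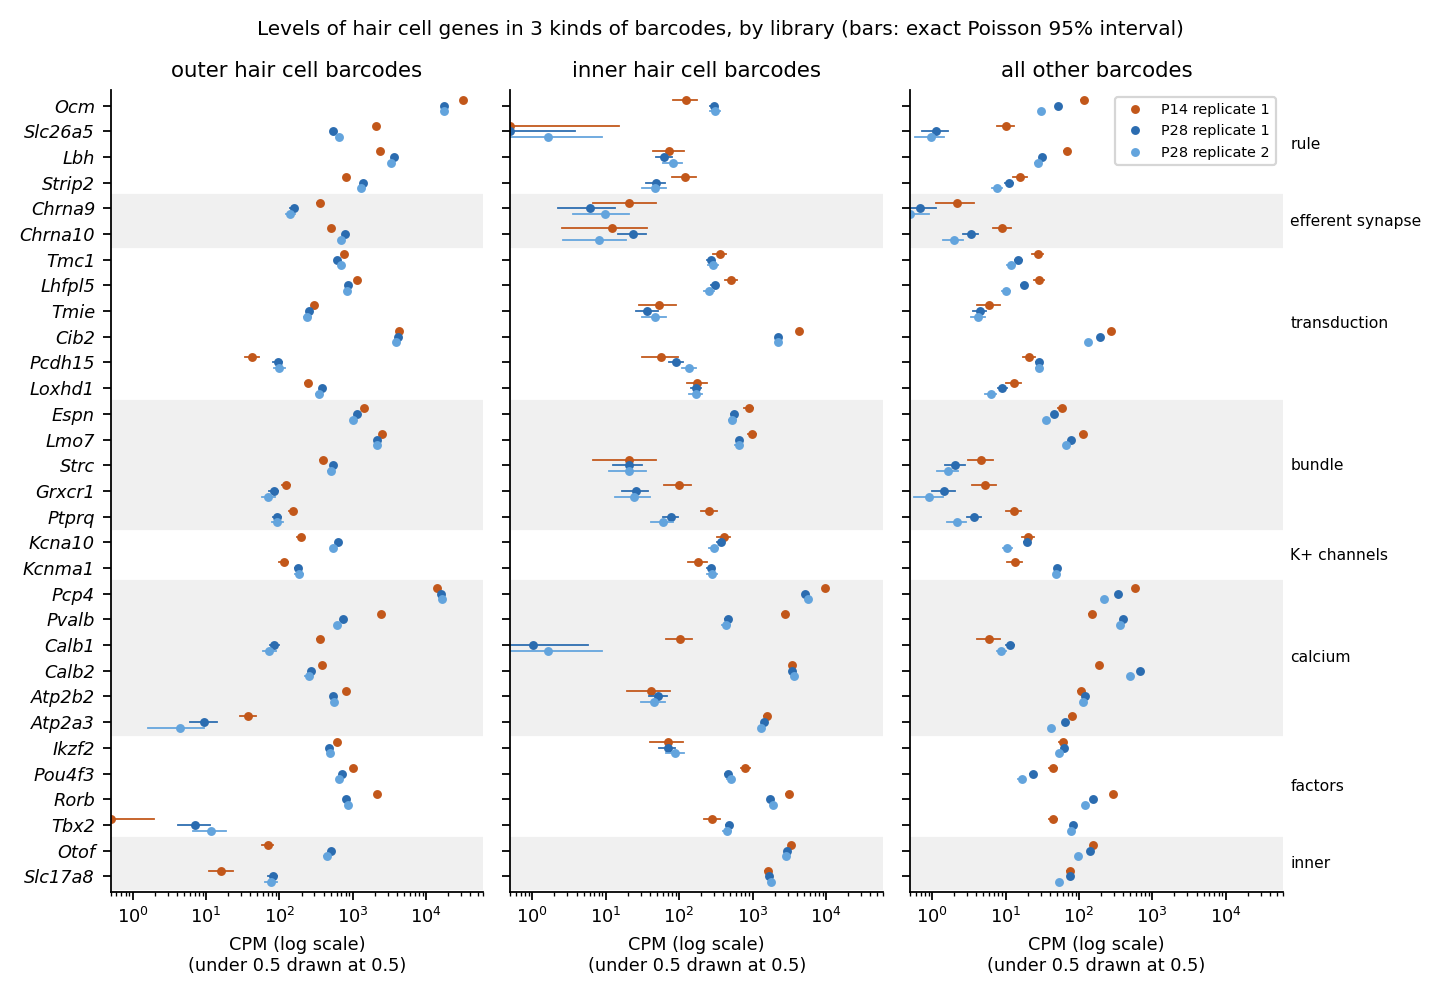
Level (CPM, log scale, horizontal) of 31 genes in outer hair cell, inner hair cell and all other barcodes, with points for each of the 3 libraries (orange P14, blues P28) and bars for the exact Poisson 95% interval. Chrna9, Chrna10 and Strc were far to the right in outer hair cells, and Otof and Slc17a8, which chose the inner hair cells, lay to the right there.

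With the 4 genes of the rule left out, Pcp4, a calmodulin-binding protein, had the highest level among genes at least 4-fold above the rest. It stood at 13979, 16059 and 16473 CPM (log2 fold change 5.61 ± 0.38 (SE), adjusted p = 0.00113). Calml4, a calmodulin-like protein of intermicrovillar adhesion, stood at 1299.6, 1398 and 1357 CPM (log2 fold change 4.07 ± 0.15 (SE), adjusted p = 0.000544). Further genes among the most abundant were Cib2, Selenow, a selenoprotein, Lmo7, Sorbs2, an actin-linked adaptor, Gpx2, a glutathione peroxidase, Myo6, the minus-end directed myosin of the bundle base, and the predicted genes Gm45716 and Gm1673. Gpx2 stood at 1288, 2110.2 and 1894 CPM against 243, 504 and 414 CPM (log2 fold change 2.37 ± 0.14 (SE), adjusted p = 0.00093). Among the 5 genes named as lower, Tmsb4x, Ptn, Lgals1, Apoe and Epyc, the levels in outer hair cells were between 46.2 and 793 CPM, and in all other barcodes between 989 and 10765 CPM. Epyc lost its call without P28 replicate 1.

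Genes for ribosomal proteins were mostly lower in outer hair cells. Of 93 tested genes for cytosolic ribosomal proteins, 2 were higher and 70 lower (30.6% of all genes), with a median of -0.90. Ribosomal protein genes gave 6.19, 7.64 and 8.12% of the members' UMIs against 10.8, 14.7 and 15.1% in the other barcodes. Of 91 tested nuclear genes for the respiratory chain and ATP synthase, 29 were higher, a share close to the 26.3% of all genes, and 7 lower. The 13 mitochondrially encoded genes had a median log2 fold change of 0.88, given as a description only, since the limit of 15% on their share chose the barcodes. The antioxidant list had 11 of 16 genes lower and 2 higher, and Cat, catalase, stood at 1.61, 4.96 and 4.37 CPM (log2 fold change -3.71 ± 0.31 (SE), adjusted p = 0.00169). The 2 higher genes were Prdx5, a mitochondrial peroxiredoxin, at 1555, 778 and 675 CPM (log2 fold change 1.47 ± 0.17 (SE), adjusted p = 0.00337) and Txnrd1, thioredoxin reductase, at 66.1, 162 and 154 CPM (log2 fold change 1.47 ± 0.24 (SE), adjusted p = 0.00751). Of 15 immediate early and heat shock genes, 11 were lower and 3 higher, the higher ones being Hspa8, Dnajb1 and Hsp90aa1. Hspa8, a constitutive chaperone, stood at 1465, 666 and 648 CPM (log2 fold change 0.65 ± 0.19 (SE), adjusted p = 0.0355) and lost its call when either P28 library was left out. Glucose use and creatine kinase genes had 8 of 16 lower and 1 higher. The higher gene, Ckmt1, the mitochondrial creatine kinase (log2 fold change 1.56 ± 0.48 (SE), adjusted p = 0.0449), also lost its call when either P28 library was left out.

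The cortical lattice of the lateral wall, a spectrin and actin network under the membrane, was not higher at the RNA level. Of its 7 listed genes, 5 were tested, 4 were lower (30.6% of all genes) and none higher. Sptbn1, a spectrin, stood at 176, 225 and 234 CPM against 470.4, 607 and 705 CPM (log2 fold change -1.33 ± 0.13 (SE), adjusted p = 0.00223). Sptbn5 and Slc2a5, the fructose carrier assigned to the lateral wall, reached at most 1.08 CPM in any library of outer hair cells.

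Markers of other cell types made up a small share of UMIs in most members. No gene of the 13 marker lists of other cells was called as higher in outer hair cells than in the rest, although single libraries could stand above the rest, as for Otof and Slc17a8 at P28 and Ighm at P14, described with the ages. The rest includes the inner hair cells. With these left out, Otof and Slc17a8 stood higher in outer hair cells, at log2 fold changes of 4.45 and 4.22, which describes the choice of inner hair cells by these 2 genes. Called as lower, beside 30.6% of all genes tested, were 7 of 10 supporting cell genes, all 6 glial genes, all 7 macrophage genes, 6 of 7 fibrocyte genes and 2 of 5 tested neuronal genes. Of the inner hair cell list, 2 of 5 genes were lower. Both genes of the lining cells and of the root cells were lower, as were all 3 tested strial genes and 2 of 3 tested endothelial genes. Of the erythroid and B cell lists 1 of 5 and 1 of 4 were lower, and of the granulocyte list 0 of 4, with 0 higher in each. The median share of UMIs from markers of other cells, Ighm included, was 0.314, 0.172 and 0.249% per member. The largest share in any member was 1.52, 31.7 and 42.2%.

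Inner hair cells were the nearest cell type for comparison. Their barcodes were taken within the same limits, were not members, had Ocm under 0.5% and had at least 1 UMI each of Otof and Slc17a8 with at least 3 together, which gave 35, 98 and 75 barcodes. Of 9532 genes tested, 1651 (17.3%) were higher in outer hair cells and 1667 (17.5%) lower, with the 4 genes of the rule, Otof and Slc17a8 left out. Without the library as a block the counts were 830 and 1005, without P28 replicate 1 they were 593 and 772, without P28 replicate 2 they were 970 and 1171, and without P14 they were 2344 and 2586. DESeq2 called 900 genes higher. With all barcodes limited to 3000 genes and 15000 UMIs, which left 22, 22 and 16 inner hair cell barcodes, the counts were 350 and 362, and with every barcode thinned to 1000 UMIs they were 395 and 393. At least 4-fold, 330 genes (3.46%) were higher and 574 (6.02%) lower. The inner hair cell barcodes had 2954, 10443 and 8288 UMIs in the median. They also held much RNA of supporting cells, since the 10 supporting cell markers summed to 1381, 4006 and 3833 CPM against 62.9, 521 and 500.0 CPM in outer hair cells. The part of this RNA in the genes that were lower in outer hair cells was not tested.

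**Figure D3:**
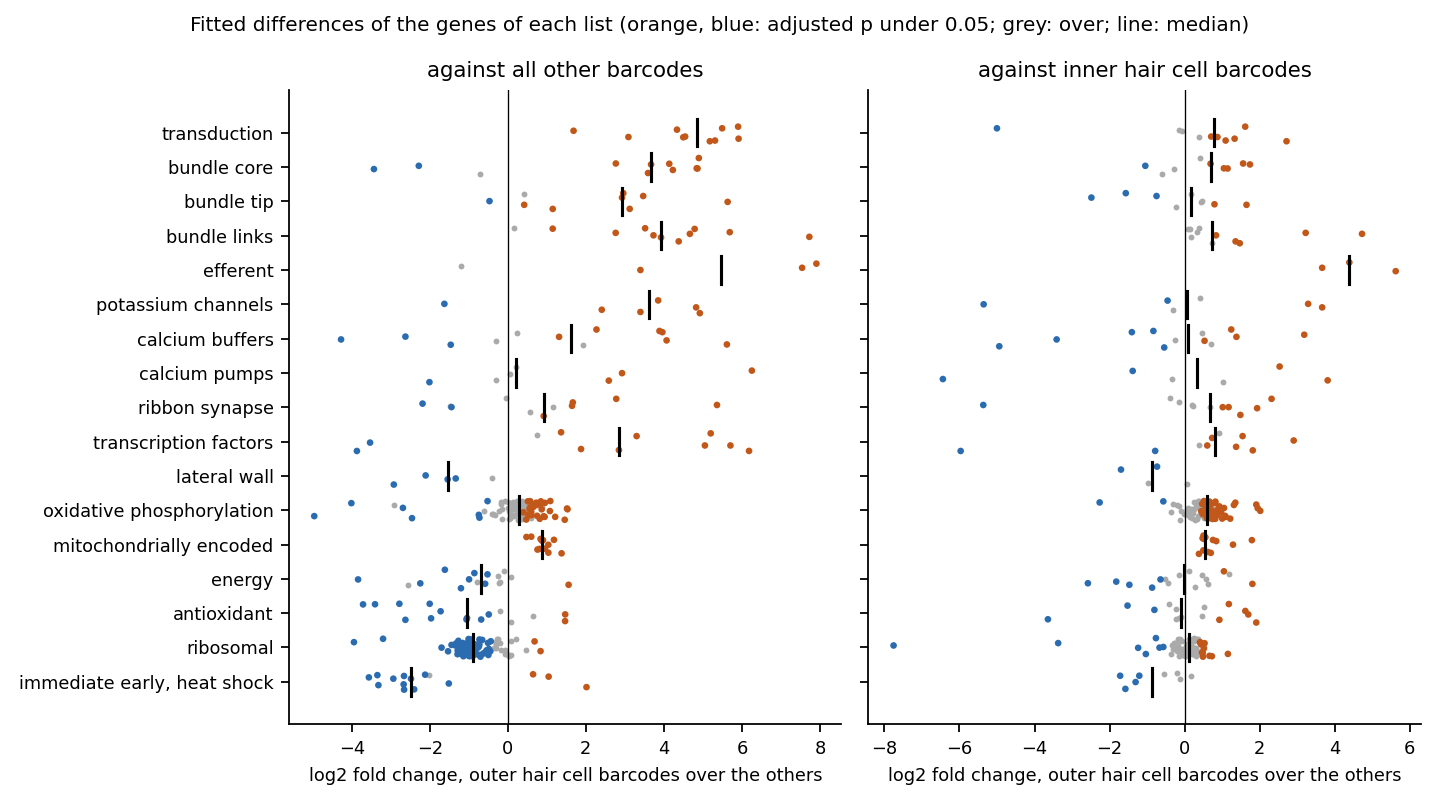
Log2 fold change of each gene (points) in outer hair cell barcodes over all other barcodes (left) and over inner hair cell barcodes (right), grouped by list; orange and blue points passed an adjusted p of 0.05, and black lines are list medians. Transduction, bundle links and the efferent synapse had medians of 4.86, 3.93 and 5.47 on the left and of 0.79, 0.73 and 4.39 on the right.

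The efferent genes separated outer from inner hair cells, with a list median of 4.39 where the median over all genes tested was 0.06. Chrna9 stood at 20.5, 6.12 and 9.65 CPM in inner hair cells (log2 fold change 4.39 ± 0.24 (SE), adjusted p = 7.4e-07), Chrna10 at 12.3, 23.4 and 8.04 CPM (log2 fold change 5.63 ± 0.26 (SE), adjusted p = 3.4e-07) and Kcnn2 at 32.8, 14.3 and 16.1 CPM (log2 fold change 3.67 ± 0.25 (SE), adjusted p = 2.7e-06). All 3 tested genes of the list were higher in outer hair cells in 3 of 3 libraries, where 17.3% of all genes tested were higher. Kcnma1, the large-conductance potassium channel, was lower (log2 fold change -0.45 ± 0.15 (SE), adjusted p = 0.0353), a call lost when either P28 library was left out. Kcnab1, a potassium channel β subunit, stood at 3.76, 6.21 and 2.91 CPM in outer and 172, 234 and 220.3 CPM in inner hair cells (log2 fold change -5.36 ± 0.23 (SE), adjusted p = 2.4e-07).

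Transduction and bundle genes differed in part. Of 10 tested genes of the transduction list, 6 were higher in outer hair cells (17.3% of all genes). The 1 lower gene of the 10 (17.5% of all genes) was Pkhd1l1 (log2 fold change -5.00 ± 0.71 (SE), adjusted p = 0.000317). It had no UMI in members of P28 replicate 2. Among the 6, Tmie differed most (log2 fold change 2.72 ± 0.18 (SE), adjusted p = 2.7e-06), followed by Lhfpl5 (log2 fold change 1.62 ± 0.16 (SE), adjusted p = 2.8e-05) and Tmc1 (log2 fold change 1.33 ± 0.14 (SE), adjusted p = 5e-05). Cib2 was higher in 2 of 3 libraries only (log2 fold change 0.71 ± 0.17 (SE), adjusted p = 0.00935), a call lost when either P28 library was left out. Cdh23 and Pcdh15 were not called, with log2 fold changes of 0.39 ± 0.15 and -0.07 ± 0.18 (SE). Among the links, 5 of 11 were higher and none lower, with Strc far above inner hair cells (log2 fold change 4.73 ± 0.21 (SE), adjusted p = 2.4e-07). At the tips, 2 of 9 were higher, near the share over all genes, and 3 were lower, and Whrn, the scaffold whirlin, stood at 13.4, 20.3 and 24.0 CPM against 127, 119 and 119 CPM (log2 fold change -2.48 ± 0.22 (SE), adjusted p = 1.3e-05).

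Calcium genes were mixed. Of 12 tested genes of the calcium buffer list, 4 were higher and 5 lower in outer than in inner hair cells, and of 6 tested pumps and exchangers 2 were higher and 2 lower (17.3% and 17.5% of all genes). The plasma membrane pump gene Atp2b2 stood at 795, 542 and 552 CPM in outer and 41.0, 52.0 and 45.0 CPM in inner hair cells (log2 fold change 3.81 ± 0.20 (SE), adjusted p = 5.8e-07), while its relative Atp2b1 was lower in outer hair cells (log2 fold change -1.38 ± 0.14 (SE), adjusted p = 3.5e-05). Atp2a3, a pump of the endoplasmic reticulum, stood at 37.6, 9.51 and 4.37 CPM against 1573, 1422 and 1312 CPM (log2 fold change -6.44 ± 0.40 (SE), adjusted p = 1.6e-06). Slc8a2, a sodium-calcium exchanger, was higher (log2 fold change 2.53 ± 0.23 (SE), adjusted p = 1.4e-05). Of the buffers, Calb1 was higher (log2 fold change 3.19 ± 0.48 (SE), adjusted p = 0.000462). Calb2 was lower, at 383, 271 and 252 CPM against 3442, 3437 and 3642 CPM (log2 fold change -3.41 ± 0.16 (SE), adjusted p = 3.9e-07). Pvalb, parvalbumin, was not called between them (log2 fold change 0.46 ± 0.17 (SE), adjusted p = 0.0634), with 2401, 729 and 608 CPM in outer and 2729, 469 and 437 CPM in inner hair cells.

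Of the 10 hair cell markers outside the rule, 8 were higher than in inner hair cells (17.3% of all genes) and Myo6 and Myo7a, the hair cell myosins, were not called. The call of Pou4f3 was lost when either P28 library was left out. Ikzf2 stood at 69.7, 69.3 and 88.4 CPM in inner hair cells (log2 fold change 2.91 ± 0.18 (SE), adjusted p = 1.6e-06). Rfx3, a ciliary regulator, was higher (log2 fold change 1.55 ± 0.24 (SE), adjusted p = 0.000536). Rorb was lower (log2 fold change -0.78 ± 0.15 (SE), adjusted p = 0.00212), a call lost when either P28 library was left out, and so was Tbx2, at 0, 7.03 and 11.6 CPM against 283, 480.2 and 450.2 CPM (log2 fold change -5.97 ± 0.39 (SE), adjusted p = 2e-06).

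Ribbon synapse genes were mixed. Of 11 tested, 5 were higher in outer hair cells and 1, Rims2, a presynaptic scaffold, was lower, at 4.84, 2.90 and 1.46 CPM against 205, 124 and 113 CPM (log2 fold change -5.37 ± 0.26 (SE), adjusted p = 3.9e-07). Cacna1d, the calcium channel of hair cells, stood at 383, 619 and 529.8 CPM in outer and 254, 111 and 122 CPM in inner hair cells (log2 fold change 1.93 ± 0.30 (SE), adjusted p = 0.000657). The respiratory chain and ATP synthase list had 47 of 86 genes higher and 2 lower, where 17.3% of all genes were higher. Of 92 ribosomal protein genes, 12 were higher and 7 lower, under the 17.3% and 17.5% of all genes in both directions.

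The genes named by level as higher in outer than in inner hair cells were Gm45716, Gm1673, Sorbs2, Sri, Lpin2, Mmd, Tmem229a, Aqp11, Olfm1 and Sh3gl3. Sri, sorcin, a calcium-binding regulator, stood at 1681, 1102 and 1097 CPM against 217, 60.1 and 70.7 CPM (log2 fold change 3.86 ± 0.24 (SE), adjusted p = 1.6e-06), and Aqp11, an aquaporin of intracellular membranes, at 1171, 814 and 707 CPM against 16.4, 33.6 and 38.6 CPM (log2 fold change 4.86 ± 0.26 (SE), adjusted p = 7.1e-07). Sh3gl3, an endophilin, differed most among the 10, with 747, 776 and 781 CPM against 8.19, 12.2 and 14.5 CPM (log2 fold change 6.11 ± 0.22 (SE), adjusted p = 9.3e-08). Lpin2, a phosphatidate phosphatase, differed by 3.53 ± 0.22 and Olfm1, a secreted glycoprotein, by 4.84 ± 0.21 on the log2 scale. Gm45716 (ENSMUSG00000110344, chromosome 11, 90187683 to 90251255, plus strand, GRCm38) overlaps Mmd (90249456 to 90278589) on the same strand in the GENCODE annotation, so reads of the 2 genes may not be separable and their values are uncertain. The lower genes were Igfbp5, Calb2, Pgm2l1, Scd1, Atp2a3, Rflnb, Sparc, Kifap3, Far1 and Atp1b1. Igfbp5, a growth factor-binding protein, stood at 85.5, 301 and 367 CPM in outer hair cells, at 6121, 6691 and 7091 CPM in inner hair cells and at 2832, 1618 and 1843 CPM in the rest, and Kifap3, a kinesin adaptor, at 53.8, 52.5 and 53.9 CPM against 1127, 1037 and 1040.3 CPM (log2 fold change -4.17 ± 0.16 (SE), adjusted p = 1.3e-07).

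Outer hair cells of the 2 ages were compared without a test, since P14 had 1 library. A gene was counted where its exact Poisson 95% interval at P14 lay apart from both P28 libraries, its level differed at least 2-fold from both (1 CPM added) and it reached 50 CPM at the higher age. Of 4003 genes that reached 50 CPM, the 4 genes of the rule left out, 198 (4.95%) were counted as higher at P14 and 203 (5.07%) as higher at P28. With TMM scaling the counts were 315 and 128, and with levels taken without mitochondrial, ribosomal protein, haemoglobin and rule genes they were 175 and 329. In all other barcodes 293 and 481 of 4237 genes (6.92% and 11.4%) were counted, and in inner hair cell barcodes 318 and 374 of 4538 (7.01% and 8.24%). The 35 genes shared at P14 were 17.7% of the outer hair cell list and 11.9% of the other, and the 43 shared at P28 were 21.2% and 8.94%. Age cannot be told apart from the library, its mice and its preparation, and the mitochondrial and Malat1 shares given above moved with it. So did genes of the sex chromosomes, with Xist, the RNA of the inactive X chromosome, at 193, 0 and 0 CPM in members and 465, 0.271 and 0.365 CPM in the other barcodes, and the Y-linked Ddx3y at 29.6, 88.9 and 96.1 CPM in members. The part of these in the counts was not tested.

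Among the genes outside the rule, Chrna9 was counted as higher at P14 (log2 ratio 1.25). Rorb, a nuclear receptor, stood at 2149, 796 and 859 CPM, a log2 ratio of 1.37, against 1.07 in the other barcodes. Of 11 genes of the calcium buffer list that reached 50 CPM, Pvalb and Calb1 were counted as higher at P14 and S100b as higher at P28 (4.95 and 5.07% of all genes). Calb1 stood at 353, 84.8 and 72.8 CPM and S100b at 6.99, 38.5 and 106 CPM. S100b was more abundant in the other barcodes, at 124, 232 and 421 CPM, where it was also lowest at P14. In the other barcodes Pvalb went the opposite way, at 149, 402 and 357 CPM.

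The 10 genes named for P14 were Ighm, Zan, Sfn, Hsd11b1, Hist2h2aa1, Efhd2, Ryr1, Fggy, Tex14 and Lmod3. Efhd2, an actin-binding EF-hand protein, stood at 1135, 66.6 and 68.4 CPM in outer hair cells and at 52.2, 48.4 and 52.6 CPM in the rest. Lmod3, a leiomodin that nucleates actin, stood at 1499, 137 and 142 CPM, and it was also highest at P14 in inner hair cells, at 549, 11.2 and 12.9 CPM. Ryr1, the calcium release channel, stood at 115, 4.14 and 8.01 CPM and Hsd11b1, the cortisol-regenerating dehydrogenase, at 242, 4.14 and 4.37 CPM. Ckb, brain creatine kinase, was counted as higher at P14 at 1304, 225 and 235 CPM, and inner hair cells held 1532, 270.2 and 305 CPM. Of the fuel genes Eno1 and Ldhb were counted as higher at P14 too, and none of the list at P28. Of 80 respiratory chain genes that reached 50 CPM, 7 were counted as higher at P14 and 0 at P28, where 4.95 and 5.07% of all genes were counted.

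Ighm, which encodes the constant region of the immunoglobulin μ heavy chain (chromosome 12, 113418558 to 113422730, minus strand, GRCm38), stood at 2077, 4.96 and 15.3 CPM in outer hair cells, 24.6, 2.04 and 0 CPM in inner hair cells and 106, 25.4 and 26.9 CPM in the rest. At P14, 79.2% of members held a UMI of it, and after thinning to 1000 UMIs 66.3% did against 7.45% of the other barcodes. The B cell genes Cd79a and Cd79b had no UMI in P14 members and Igkc stood at 0.538 CPM. Of 228 P14 members with at least 3000 UMIs, 42 had no Ighm UMI and 170 had 3 or more, so the gene was not spread evenly over the members. Members without Ighm had a median of 5895 UMIs and those with 3 or more 7585 UMIs. Calb1 stood at 134 CPM (interval 93.5 to 185) in those without and at 414 CPM (381 to 449) in those with it, and Kcnj13, a potassium channel, at 48.2 and 172 CPM. Apoe and Tmsb4x, genes of the other barcodes, were also lower in those without, at 26.0 against 198 CPM and 29.7 against 146 CPM. The outer hair cell genes Gm45716 and Gm1673 were higher in those without, at 753 CPM (653 to 864) against 570 CPM (531 to 610) and at 1807 CPM (1650 to 1974) against 1391 CPM (1330 to 1454). Slc26a5 stood at 2007 CPM (1841 to 2183) in those without and at 2039 CPM (1965 to 2114) in those with it. Pvalb stood at 2315 CPM (2137 to 2504) and 2468 CPM (2387 to 2551), and Ocm at 33595 and 31740 CPM. This split was made after the values had been seen.

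**Figure D4:**
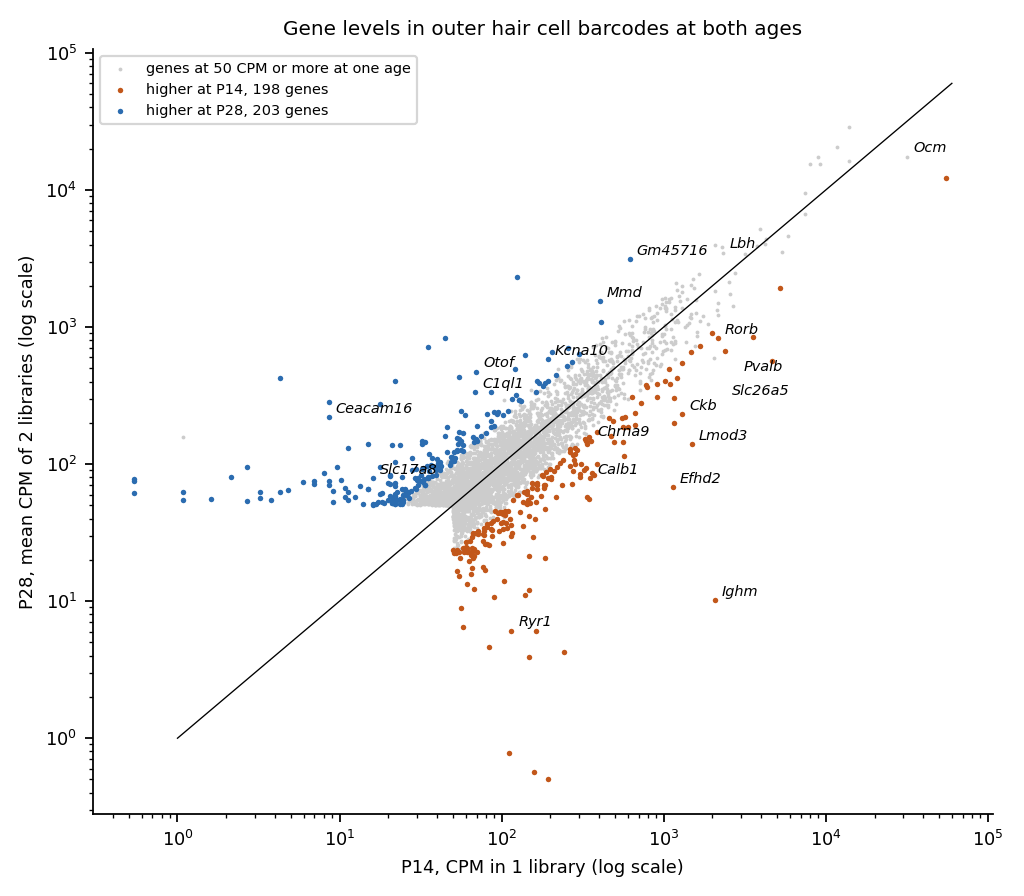
Mean level at P28 (CPM, 2 libraries, vertical, log scale) against the level at P14 (CPM, 1 library, horizontal, log scale) of genes in outer hair cell barcodes; the line marks equal levels. The 198 genes counted as higher at P14 (orange) include Ighm, Efhd2, Lmod3 and Pvalb, and the 203 counted as higher at P28 (blue) include Gm45716, Mmd, Otof and C1ql1. The 4 genes of the rule are drawn in grey.

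The 10 genes named for P28 were Otof, Gm45716, Tjap1, C1ql1, Elovl2, Mmd, Ifit1, Rhpn1, Hnrnph1 and Sema3a. Gm45716 stood at 621, 3199 and 3073 CPM and Mmd, its overlapping neighbour, at 404, 1546 and 1547 CPM. C1ql1, a secreted C1q-like protein, stood at 68.8, 381 and 289.6 CPM, Elovl2, a fatty acid elongase, at 32.3, 146 and 135 CPM, and Sema3a, an axon guidance ligand, at 44.6, 181 and 139.7 CPM. Kcna10, a shaker-type potassium channel, stood at 194, 623 and 545 CPM, and Slc8a2 at 170.4, 404 and 373 CPM. All of these were higher in both P28 libraries than at P14, as the limits for counting a gene required.

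Of the 5 genes of the inner hair cell list, 3 reached 50 CPM in members, and of these Otof and Slc17a8 were counted as higher at P28 (5.07% of all genes) and Calb2 was not counted. Otof stood at 69.9, 503 and 439.6 CPM in outer and 3368, 2945 and 2825 CPM in inner hair cells, and 36.0 and 30.5% of thinned P28 members held a UMI of it, against 5.16% at P14 and 3.09 and 3.59% of the other P28 barcodes. Slc17a8 stood at 16.1, 81.1 and 77.1 CPM, and Calb2, which encodes the calcium buffer calretinin, was highest at P14, at 383, 271 and 252 CPM. Nrgn, another gene of the list, was at 0, 0.414 and 0 CPM in outer hair cells against 270, 65.2 and 72.4 CPM in inner hair cells. Tbx2 stood at 0, 7.03 and 11.6 CPM in outer hair cells.

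Of the 13 lists of markers of other cells, only the macrophage and B lineage lists were highest at P14 in the members. Macrophage markers summed to 115, 26.1 and 77.1 CPM. B lineage markers summed to 2077, 5.79 and 31.3 CPM, at P14 almost all of it Ighm, while Cd79a and Cd79b had no UMI there. Summed over the 13 lists, the markers of other cells stood at 3280, 3612 and 10959 CPM in members, and without Ighm at 1203, 3607 and 10944 CPM, so that P14 was lowest. Ceacam16, a tectorial membrane gene of supporting cells, stood at 8.60, 223 and 215 CPM in members and 286, 485 and 529 CPM in other barcodes, and the supporting cell markers summed to 62.9, 521 and 500.0 CPM. Haemoglobin was uneven, with Hbb-bs at 124, 688 and 3968 CPM, and the 10% of members with most of it held 97.5% of its UMIs in P28 replicate 2. Granulocyte genes summed to 1.08, 0.414 and 682 CPM. The part of these RNAs in the genes counted as higher at P28 was not tested. Without the 10% of members highest in markers of other cells, 195 genes were counted as higher at P14 and 192 as higher at P28, of which 184 and 169 had been counted in the full set.

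Outer hair cell barcodes of one library also differed among themselves. For 3916 genes with at least 0.2 UMIs per member in all 3 libraries, the variance of the counts about a Poisson expectation from each member's own depth had a median of 1.08, 1.05 and 1.04, where counting noise alone gives a value near 1. The 10 genes with the highest variance by mean rank were Tmsb4x, Otos, Apoe, Malat1, Ocm, Dbi, S100a1, Pcp4, Epyc and Igfbp5. For the same relative spread this variance grows with the level of a gene, so the ranks favour abundant genes. The 10% of P14 members with most Ocm UMIs held 20.7% of them, and for Calb1, in place 30, this share was 62.7%. Tmsb4x, Otos, Apoe, Dbi, S100a1, Epyc and Igfbp5 were more abundant in the other barcodes than in members in all 3 libraries, while Pcp4 was far more abundant in members. Ocm, also among the 10, is the gene of the rule. With every member thinned to 1000 UMIs only the 606 genes that still had at least 0.2 UMIs per member could be ranked. Of the 10, 4 were again among the first 10. Genes under that minimum had no rank after thinning, so their absence does not show a lower variance. Ocm ran from 19064 CPM at the 10th percentile to 41695 CPM at the 90th percentile of P14 members, from 11821 to 25170 CPM in P28 replicate 1 and from 11509 to 24504 CPM in P28 replicate 2.

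Some genes varied together over outer hair cells. Over the members of a library, the Pearson residuals of Gm45716 and Pcp4 correlated at 0.46, 0.53 and 0.47 (n = 259, 362 and 282 barcodes). Those of Ocm, whose share chose the members, and Pcp4 correlated at 0.66, 0.54 and 0.58. Calb1 correlated with Otof at 0.61, 0.33 and 0.22 and with Gm45716 at -0.41, -0.34 and -0.28. Pvalb went with Otof at P28, at 0.49 and 0.48, and not at P14, at 0.07. Among members of up to 3000 genes, the value of Ocm and Pcp4 was 0.64, 0.23 and 0.54, and that of Pvalb and Otof at P28 was 0.40 and 0.45. In the same members Gm45716 and Pcp4 gave 0.32, 0.44 and 0.45, Calb1 and Gm45716 gave -0.22, -0.32 and -0.25, and Calb1 and Otof gave 0.29 and 0.175 at P28, the P14 value not being computed. The barcodes of a library share its depth and its free RNA, and the pairs were chosen after the values had been seen.

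**Figure D5:**
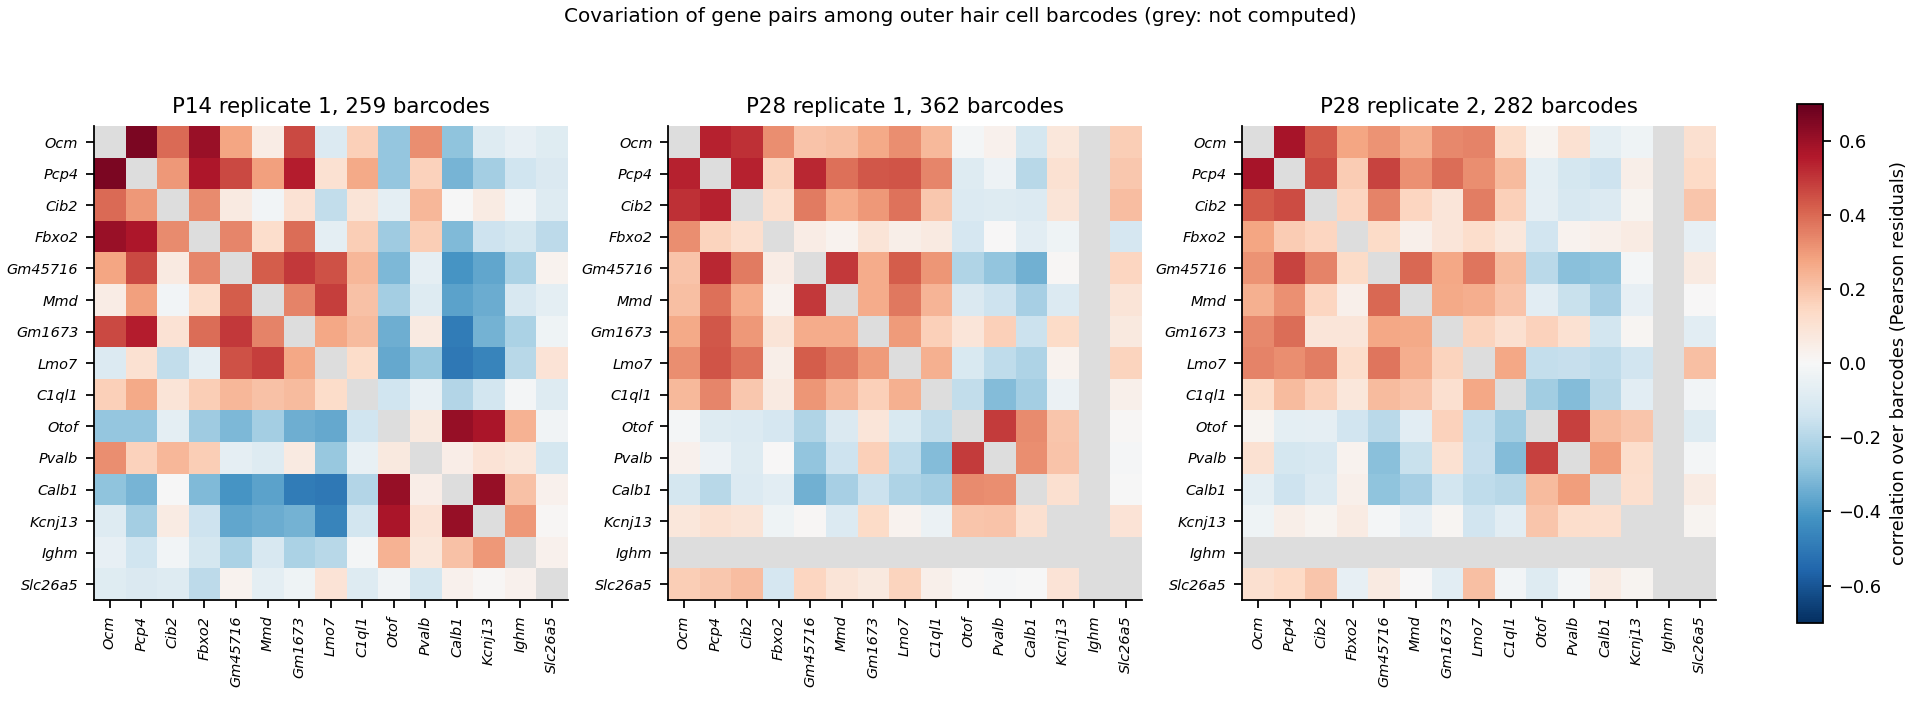
Correlation over outer hair cell barcodes of the Pearson residuals of 15 genes (rows and columns), 1 panel per library, red for positive and blue for negative values. Ocm with Pcp4 and Gm45716 with Pcp4 were red in all 3 libraries, Calb1 with Gm45716 was blue in all 3, and Ighm was computed at P14 only.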

How the data were processed

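The authors dissociated cochleae, made 10x Chromium 3′ libraries and deposited 1 raw UMI count matrix per library (32285 genes, mm10). The file headers name Cell Ranger 5.0.1 and the submitters' processing notes 6.0.1. The deposited barcodes had passed only Cell Ranger's cell calling. No column of another sample was present.

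Members and inner hair cells were chosen by the limits given in the text, and counts were summed per library. The gene lists, members and tests were chosen with earlier results of these data known. Of symbols shared by several rows (38), the row with most UMIs was used. Tests used edgeR 4.0.16 (quasi-likelihood, TMM, filterByExpr, library as block, Benjamini-Hochberg) in R 4.3.3, with DESeq2 1.42.0 as an alternative, and were checked on simulated data. The block came from the design, since both sums of a library share its mice. Deviations of same-library sums correlated at 0.367, 0.374 and 0.324 with the other barcodes and at 0.550, 0.399 and 0.418 with inner hair cells. The ages were compared as counts per 1000000 of the summed UMIs (CPM) with exact Poisson intervals, without a test. Thinned values drew 1000 UMIs per barcode, leaving out 7, 1 and 0 members and 356, 526 and 719 other barcodes.

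Named genes were all genes of the fixed lists and the leading genes by level. Against the other barcodes these were the 10 most abundant at least 4-fold higher, the genes of the rule left out. The 5 most abundant at least 4-fold lower were also named, and against inner hair cells 10 each way. Between ages they were the 10 each way with the largest ratio to both P28 libraries. These came from genes with at least 100 CPM at the higher age and a level there above that of all other barcodes. Among members they were the 10 genes with the highest variance by mean rank. Some of these genes are not reported here. Python 3.11.15 and SciPy 1.17.1 were used for the rest.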

Additional observations from a re-analysis of the deposited data

Results flagged for a closer look

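For 7 genes the age difference in outer hair cells had the opposite sign to that in all other barcodes, each counted by the same limits of fold and interval. These were 3 of the 198 genes counted as higher at P14 in outer hair cells and 4 of the 203 counted as higher at P28. In the other barcodes 11.4% of all genes were counted as higher at P28 and 6.92% as higher at P14, so both fractions lay under these shares. The difference between the groups was not tested, and age rests on 1 library at P14. Pvalb, parvalbumin, had a log2 ratio of P14 over the P28 mean of 1.84 in outer hair cells and -1.34 in the rest. Fndc5, the irisin precursor, had 3.10 and -1.71, at 185, 21.1 and 20.4 CPM in outer hair cells. Insyn1, a protein of inhibitory synapses, had 1.24 and -1.73. The other 4 were higher at P28 in outer hair cells and far more abundant in the other barcodes at each age, with Car3, a carbonic anhydrase, at -3.59 and 1.57, Prss36, a serine protease, at -2.67 and 1.63, Lgals1, a galectin, at -2.10 and 2.24, and Epyc, a proteoglycan, at -2.0 and 2.52. In outer hair cells Car3 stood at 4.30, 77.4 and 48.8 CPM against 1191, 429 and 375 CPM in the rest. Epyc had a UMI in 24.0 and 28.4% of P28 members, and the 10% of members with most of it held 88.1 and 79.5% of its UMIs. Lgals1 differed between the P28 replicates, at 346 and 141 CPM in members. The part of RNA from other cells in these values was not tested.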

How the results depend on the processing

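The counts of called genes moved with the libraries left out, the limits on barcodes and UMIs, the model and the scaling. Against all other barcodes, 3433 genes were higher and 3993 lower. With at least 10 UMIs in every sum these were 2286 and 2264, and thinning gave 1834 higher. Leaving out 1 library gave 1162 to 4543 higher and 2035 to 5779 lower. Against inner hair cells, 1651 were higher and 1667 lower. Without the replicate block these were 830 and 1005, DESeq2 gave 900 higher, at least 10 UMIs gave 816 and 887, limiting all barcodes to 3000 genes and 15000 UMIs gave 350 and 362, thinning gave 395 and 393, and leaving out 1 library gave 593 to 2344 higher and 772 to 2586 lower. Between ages, 198 genes were counted as higher at P14 and 203 at P28. TMM scaling, which moved the median log2 ratio from -0.04 to 0.16, gave 315 and 128. Levels without mitochondrial, ribosomal protein, haemoglobin and rule genes gave 329 higher at P28, 10 CPM added gave 132, and thinning gave 128. Leaving out a P28 library gave 239 to 259 higher at P14 and 265 to 274 at P28. All 20 named age genes were counted under every setting but thinning, where 9 of the 10 P28 genes were. Of their log2 ratios under these settings 112 moved by no more than the SD of the P28 libraries and 88 by more, none changing sign, among them 16 of 20 with 10 CPM added and 16 of 20 under thinning. Thinned, 606 of 3916 genes could be ranked for variation. The cause of these shifts was not tested.

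The signs of 10 single values reversed. Against all other barcodes, limiting all barcodes to 3000 genes and 15000 UMIs gave Calb2 1.21 and Pclo 1.03. Without P14, Rab3a stood at -0.21, Slc17a8 at 0.41 and Ighm at -1.41, and leaving out 1 library gave -0.21 to 0.85, -1.001 to 0.41 and -1.41 to 1.85. With inner hair cells left out of the rest, Atp2a3 stood at 1.41 and Slc17a8 at 4.22. Against inner hair cells, the same limits gave Eps8 -0.23 and Coch -1.03, and thinning gave Coch -0.038. Of the other named values against all other barcodes 2843 were unchanged in direction and call, 123 gained and 109 lost a call, and against inner hair cells 2097, 87 and 137. Relative to the fits used, DESeq2 moved the median log2 fold change of all genes by -0.096 and -0.033, and CPM without TMM by -0.155 and -0.156. The members numbered 661 under the limits of 3000 genes and 15000 UMIs, 1335 with a mitochondrial limit of 30%, and 928 and 852 with Ocm limits of 0.25 and 1%.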
